A study of Rattus norvegicus with 8 samples.

Results

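The genes described here are 10 genes of the AP-1 transcription factor family and the immediate early response: Jun, Junb and Jund of the Jun family, Fos and Fosb of the Fos family, and Egr1, Nr4a1, Atf3, Ier2 and Ier3. They were chosen by gene name among the non-control probes of a 1-colour Agilent rat expression array, on which 27110 genes were named, and each was described by its brightest probe that passed the filter on dim signals. Of the 10 genes, 8 passed that filter, for which 3 or more of the 7 arrays with full scanner marks had to show a signal well above background, and Fos and Fosb did not.

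The RNA came from rat liver cells cut out by laser microdissection (LMD). The 3 groups were small hepatocyte-like progenitor cells (SHPCs), which form clusters of small hepatocytes, from control livers (n = 3), SHPCs from livers transplanted with bone marrow-derived mesenchymal cells (BM-MCs, n = 3), and mature hepatocytes (MHs) from control livers (n = 2). Per the methods, all recipients were female F344 rats given 2 injections of retrorsine (Ret), an alkaloid that blocks hepatocyte division, and then partial hepatectomy (PH), so that the MHs and control SHPCs carried the same treatment as the transplanted group. The BM-MCs were cultured from the marrow of a male F344 rat aged 5 weeks, entered the liver through the spleen, and the methods put the harvest of recipient livers for histology 14 days later, with no separate time for LMD. The labels call the strain dipeptidylpeptidase IV-positive, whereas the methods call the recipients negative for this enzyme, and neither gives the age of the recipients. No label says which animal a sample came from, so the p-values cover the spread among these samples only, and that spread may be technical.

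Immediate early genes are switched on within minutes of a stimulus, without the need for new protein, by growth factor, stress and cytokine signals that run through the ERK, JNK and p38 kinases. Jun and Fos proteins pair through leucine zippers to form AP-1, a dimer that binds the sequence TGANTCA, and Jun proteins can also pair among themselves or with ATF proteins. In the liver these genes are classically induced in the first hours after PH, and Jun is needed for hepatocytes to enter the cell cycle normally.

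Values below are log2 signals relative to the 75th percentile of the same array, called the level, and a difference of 1 on this scale is a 2-fold change. Levels of different genes cannot be set against each other, since each probe has its own brightness. Differences were tested with limma over 23111 probes with Benjamini-Hochberg adjustment, and a gene was called at an adjusted p under 0.05. Counts over all genes use 14536 genes with 1 tested probe each. The 8 arrays lay on 1 slide, with the MHs and control SHPC replicates 1 and 2 in its first block of positions and the other 4 arrays (BM-MC samples and control SHPC replicate 3) in its second block, so position and transplantation largely coincide. Between 57.0% and 61.5% of spots on an array were well above background. For control SHPC replicate 2 the scanner output covers 20903 of 62976 features, and its signals were read from the deposited value table. All 6 hepatocyte markers were well above background on each of the 7 fully marked arrays, and their mean level was between 4.01 and 4.73 in the 8 samples.

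**Figure D1:**
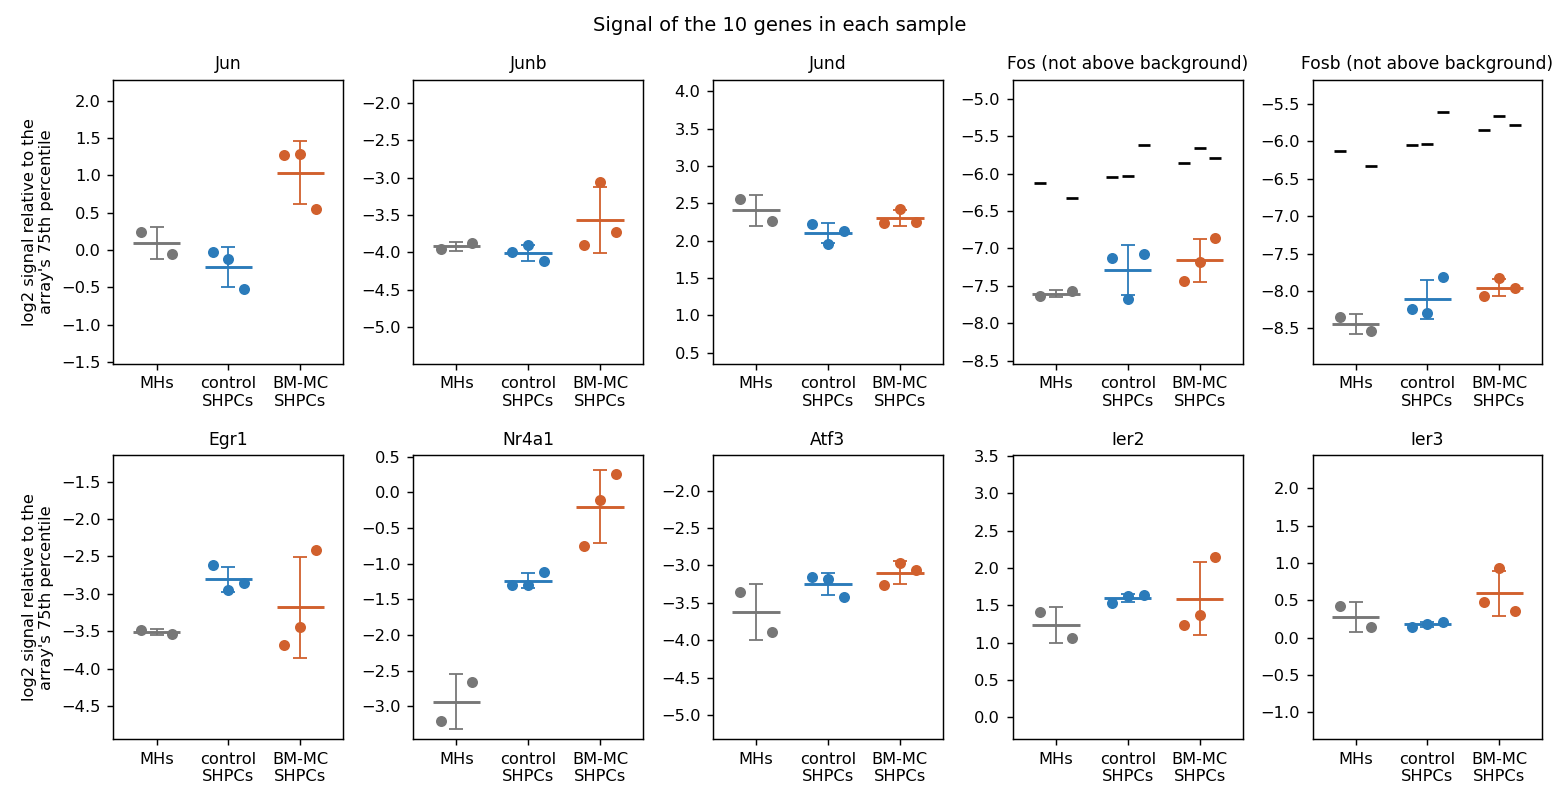
Level of each of the 10 genes (log2 signal relative to the array's 75th percentile) in the 2 MH, 3 control SHPC and 3 BM-MC SHPC samples; points are samples in replicate order, horizontal lines are group means, bars are SDs, every panel spans at least 3.8 log2 units, and black dashes in the Fos and Fosb panels mark the lowest signal called well above background on each array. Nr4a1 stepped up from MHs to control SHPCs to BM-MC SHPCs with no overlap, Jun was higher in BM-MC SHPCs than in the other groups, and Fos and Fosb lay under the dashes in all 8 samples.

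The result that passed the test was Nr4a1, which encodes an orphan nuclear receptor of the NR4A family. Its probe had 10 spots and lies at chr7:140020442-140020501 on the plus strand in the array's annotation, whose header names the rn4 build. The level was -3.21 and -2.66 in the MHs. In control SHPCs it was -1.30, -1.30 and -1.11. In BM-MC SHPCs it was -0.75, -0.11 and 0.26. The 3 groups did not overlap, and their order was MHs, control SHPCs, BM-MC SHPCs. Nr4a1 rose by 2.73 between MHs and BM-MC SHPCs (6.64-fold, SE 0.30, adjusted p = 0.0245 from limma). Control SHPCs exceeded MHs by 1.70 (3.24-fold, SE 0.30), which just missed the threshold (adjusted p = 0.0507 from limma), and the interval of the difference ran from 1.002 to 2.39. It passed in 7 of 20 alternatives. BM-MC SHPCs exceeded control SHPCs by 1.03 (2.05-fold, SE 0.26, 95% interval 0.41 to 1.66), which was not called (adjusted p = 0.18 from limma). The spots of this probe within 1 array had an SD of 0.037 to 0.18, which covers the measurement on an array and not the spread between samples (SD 0.38 in MHs, 0.11 in control SHPCs and 0.51 in BM-MC SHPCs). In the slide block that held the MHs, control SHPC replicates 1 and 2 exceeded them by 1.63, and in the other block the BM-MC samples exceeded control SHPC replicate 3 by 0.91. With slide block as a term, the difference between BM-MC SHPCs and MHs was 2.54 (SE 0.52, adjusted p = 0.27 from limma), and it was not called. The call between BM-MC SHPCs and MHs was lost without MH replicate 1 (2.46, adjusted p = 0.20 from limma), MH replicate 2 (3.002, adjusted p = 0.060 from limma) or BM-MC replicate 2 (2.69, adjusted p = 0.10 from limma). In such bulk samples, fewer cells of a type and less RNA per cell cannot be told apart.

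The Nr4a1 promoter is shown because this gene was the one called among the 10. Of the 10 genes, 6 (Fosb, Nr4a1, Jund, Egr1, Junb and Ier2) have a promoter in the RefSeq table of the GRCr8 build, and Jun, Fos, Atf3 and Ier3 were not matched. The 250 bases before each start site were searched on both strands. The motif TGCGTCA, a variant of the cAMP response element that was picked after this promoter had been read, occurred in 4 copies before Nr4a1, at 248, 228, 84 and 55 bases before the start, and in none of the other 5 promoters. Of 33469 promoter windows of the same length, 1.66% held it at least once, and the Nr4a1 window was the 1 window with 4 copies. Since the motif was taken from this promoter, these counts are no test of it. The stretch lies at chr7:134259888-134260137 on the plus strand in GRCr8, with the 4 copies in capitals.
Nr4a1 promoter: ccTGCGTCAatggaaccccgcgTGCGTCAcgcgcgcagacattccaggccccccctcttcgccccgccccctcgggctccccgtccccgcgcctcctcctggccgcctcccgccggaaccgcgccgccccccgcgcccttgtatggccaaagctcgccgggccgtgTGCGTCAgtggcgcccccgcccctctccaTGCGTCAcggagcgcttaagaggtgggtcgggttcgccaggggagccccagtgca

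The full cAMP response element TGACGTCA, which neither contains nor lies within the former motif, occurred in 1.59% of the windows and in 2 of the 6 promoters, 1 copy each in Jund and Ier2. Both are printed for comparison with Nr4a1, since neither gene was called in any comparison. The Jund stretch is chr16:18769772-18770021 on the minus strand and the Ier2 stretch chr19:40399123-40399372 on the plus strand, both in GRCr8 and written 5′ to 3′ in the direction of the gene, with the element in capitals.
Jund promoter: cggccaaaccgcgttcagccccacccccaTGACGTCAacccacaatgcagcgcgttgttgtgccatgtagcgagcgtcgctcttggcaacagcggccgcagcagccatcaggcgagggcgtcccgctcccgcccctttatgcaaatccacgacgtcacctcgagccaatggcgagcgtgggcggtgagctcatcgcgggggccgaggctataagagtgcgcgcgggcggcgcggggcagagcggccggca
Ier2 promoter: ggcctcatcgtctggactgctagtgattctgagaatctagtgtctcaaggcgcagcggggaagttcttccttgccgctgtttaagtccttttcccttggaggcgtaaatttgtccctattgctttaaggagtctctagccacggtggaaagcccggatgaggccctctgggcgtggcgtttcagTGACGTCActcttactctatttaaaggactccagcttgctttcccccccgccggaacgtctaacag
The AP-1 site TGANTCA was in 6.34% of the windows and the NR4A monomer site AAAGGTCA in 1.24%, and neither was in any of the 6 promoters. The CArG box, the core of the serum response element, was in 1.5% of the windows and in 1 of the 6 promoters, that of Egr1, in 2 copies. A match of letters is a description and no evidence of binding.

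Among the Jun family, Jun, the most potent AP-1 activator of the 3, had the largest difference between SHPCs with and without BM-MCs of the 8 tested genes over all samples, though without BM-MC replicate 1 that of Nr4a1 was larger (1.31 against 1.14). Its brightest probe, with 10 spots, lies at chr5:115358764-115358823 on the minus strand in rn4. The level was 0.24 and -0.059 in the MHs. It was -0.025, -0.12 and -0.53 in control SHPCs. It was 1.28, 1.29 and 0.55 in BM-MC SHPCs, and every one of these lay above every other sample. Control SHPC replicate 3 was the lowest sample and BM-MC replicate 3 the lowest of its group. The difference between BM-MC and control SHPCs was 1.26 (2.40-fold, SE 0.25, 95% interval 0.66 to 1.86), larger than the SD of either group (0.42 and 0.27), but it was not called over all probes (adjusted p = 0.13 from limma). BM-MC SHPCs exceeded MHs by 0.95 (SE 0.27, adjusted p = 0.27 from limma), and control SHPCs differed from MHs by -0.31 (95% interval -0.94 to 0.31, adjusted p = 0.54 from limma). The latter was -0.16 without control SHPC replicate 3, without MH replicate 1 or with slide block as a term, and -0.47 without MH replicate 2. Against control SHPC replicate 3 alone, which shared their slide block, the BM-MC samples were higher by 1.56 (adjusted p = 0.24 from limma with slide block as a term). Over 21 alternatives with adjustment (other processing, other fits and left-out samples), the difference of Jun between SHPC groups lay between 1.07 and 1.56 and passed in 0 of them.

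A second Jun probe, in another stretch of the transcript, gave levels of the same order. It was at -0.82 and -0.87 in MHs, at -0.88, -0.97 and -1.26 in control SHPCs, and at 0.48, 0.62 and -0.15 in BM-MC SHPCs. BM-MC SHPCs exceeded control SHPCs by 1.35 (2.55-fold, SE 0.23, adjusted p = 0.12 from limma) and MHs by 1.16 (adjusted p = 0.16 from limma). Both probes measure the same RNA samples and are no replicates of each other. This second probe is printed with that of Junb because both lie in a related stretch of these paralogs. The identity given below is that of the printed bases, and not that of the DNA-binding and leucine zipper region that the proteins share. The Jun probe lies at chr5:115359410-115359469 on the minus strand and the Junb probe at chr19:24832781-24832840 on the plus strand in rn4. Capitals mark bases that are the same in both when the probes are aligned without gaps, 29 of the 47 aligned positions (61.7%).
Jun probe: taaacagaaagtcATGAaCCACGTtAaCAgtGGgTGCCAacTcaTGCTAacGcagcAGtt
Junb probe: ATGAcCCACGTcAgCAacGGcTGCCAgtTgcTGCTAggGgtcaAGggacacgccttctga

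Junb, which forms weaker AP-1 dimers and can act against Jun, was at -3.96 and -3.87 in MHs and at -4.00, -3.91 and -4.12 in control SHPCs. In BM-MC SHPCs it was at -3.90, -3.06 and -3.73. BM-MC replicate 2 stood above the rest, while replicate 1 lay above the highest control by less than the SD of the controls (0.11). The difference from controls was 0.45 (95% interval -0.11 to 0.999, adjusted p = 0.38 from limma), and it was 0.20 without BM-MC replicate 2. Against MHs it was 0.35 (adjusted p = 0.54 from limma), and 0.10 without BM-MC replicate 2. Control SHPCs and MHs overlapped, with a difference of -0.092 (adjusted p = 0.86 from limma) that ranged from -0.14 to -0.037 over left-out samples, the ends being control SHPC replicates 2 and 3.

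Jund, the family member that most cells keep on without a stimulus, was measured by a probe at chr16:19239707-19239766 on the minus strand in rn4. Its level was 2.55 and 2.26 in MHs, 2.23, 1.95 and 2.13 in control SHPCs, and 2.24, 2.43 and 2.25 in BM-MC SHPCs. It varied least of the 8 tested genes, with a root mean square deviation of 0.17 around its mean over the 8 samples, against 1.10 for Nr4a1. BM-MC SHPCs exceeded controls by 0.20 (95% interval -0.097 to 0.50, adjusted p = 0.44 from limma) without overlap, and by 0.13 when control SHPC replicate 2 was left out. With scaling to the array median the difference was 0.010, where the median of all probes was -0.17. Every control SHPC sample was below both MHs, by 0.30 on average (95% interval of control minus MHs -0.65 to 0.042, adjusted p = 0.31 from limma). That difference was -0.16 without MH replicate 1 and -0.45 without MH replicate 2. A second Jund probe ranged from -3.79 to -3.15 over the 8 samples, and its control SHPCs exceeded MHs by 0.15 (adjusted p = 0.70 from limma), so that the probes differed in sign there. On this second probe the SHPC groups overlapped, with a difference of 0.11 (adjusted p = 0.78 from limma). BM-MC SHPCs and MHs overlapped on the brighter probe, with a difference of -0.10 (95% interval -0.45 to 0.24, adjusted p = 0.79 from limma) that turned to 0.080 with the mean of both probes and to 0.045 without MH replicate 1. On the second probe every BM-MC sample was above both MHs, by 0.26 on average (adjusted p = 0.58 from limma), so that the probes differed in sign here too.

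Fos and Fosb encode the partners with which Jun proteins form the most stable AP-1 dimers. The Fos probe, at chr6:109561941-109562000 on the plus strand in rn4, was not well above background on any of the 8 arrays, and the Fosb probe, at chr1:78666646-78666705 on the minus strand, on none of the 7 arrays that marked it. Fos signals lay 1.07 to 1.64 log2 units below the lowest signal called well above background on the same array, and Fosb signals 2.18 to 2.25 below. No fold change is given for them, and a level under these bounds was not detectable in any group. The Jun differences above were therefore measured in samples whose Fos and Fosb signals were at background.

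Egr1 encodes a zinc finger transcription factor and is a sensitive reporter of ERK signalling. Its probe lies at chr18:27346058-27346117 on the plus strand in rn4. The level was -3.48 and -3.53 in MHs and -2.62, -2.95 and -2.86 in control SHPCs. In BM-MC SHPCs it was -3.69, -3.44 and -2.41, so that 2 of these samples were near the MHs and replicate 3 was the highest of all 8. Control SHPCs exceeded MHs by 0.70 (1.63-fold, 95% interval -0.11 to 1.51, adjusted p = 0.32 from limma) without overlap. BM-MC SHPCs differed from controls by -0.37 (95% interval -1.18 to 0.44, adjusted p = 0.59 from limma), by -0.76 without BM-MC replicate 3 and by -0.12 without BM-MC replicate 1. They differed from MHs by 0.33 (adjusted p = 0.70 from limma), which turned to -0.057 without BM-MC replicate 3.

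Atf3, a stress-induced partner of Jun that often represses its targets, is read by a probe at chr13:107191582-107191614 on the minus strand in rn4, where the annotation places part of the 60 bases. Its level was -3.36 and -3.89 in MHs, -3.15, -3.18 and -3.42 in control SHPCs, and -3.26, -2.97 and -3.06 in BM-MC SHPCs. BM-MC SHPCs lay above both MHs, by 0.53 (1.44-fold, SE 0.19, adjusted p = 0.33 from limma). The SHPC groups overlapped and differed by 0.15 (95% interval -0.18 to 0.48, adjusted p = 0.59 from limma), a value that was 0.067 when control SHPC replicate 3 was left out, came to 0.23 when BM-MC replicate 1 was, and turned to -0.041 with scaling to the array median, under which the median of all probes moved from 0.018 to -0.17, and control SHPCs overlapped with MHs (0.38, adjusted p = 0.32 from limma). Both differences from MHs turned on the MH samples, since without MH replicate 2 they were 0.26 for BM-MC SHPCs and 0.11 for control SHPCs, and without MH replicate 1 they were 0.79 and 0.64.

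Ier2 encodes a nuclear immediate early protein, and its probe with 10 spots lies at chr19:25160648-25160707 on the plus strand in rn4. It was at 1.41 and 1.07 in MHs, at 1.54, 1.63 and 1.63 in control SHPCs, and at 1.24, 1.37 and 2.15 in BM-MC SHPCs. Controls were tightly grouped (SD 0.054) and BM-MC SHPCs were spread around them (SD 0.49), with replicate 3 above and the other two below every control. The difference between SHPC groups was -0.013 (95% interval -0.60 to 0.58, adjusted p = 0.98 from limma), which leaves changes of up to about these bounds in either direction undetected. Its sign turned with quantile normalization alone (0.052), with normexp and quantile normalization together on the 7 fully scanned arrays (0.045) and without BM-MC replicate 1 (0.16), among others. Control SHPCs exceeded MHs by 0.36 (95% interval -0.26 to 0.99, adjusted p = 0.49 from limma) without overlap, and BM-MC SHPCs exceeded MHs by 0.35 (adjusted p = 0.59 from limma). The former was 0.19 without MH replicate 2, and the latter 0.069 without BM-MC replicate 3. A second Ier2 probe was above background in 1 sample alone, BM-MC replicate 3, at -4.61, and was not tested.

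Ier3 encodes a regulator of cell survival that is induced by NF-kappaB and ERK signals. Its probe with 10 spots lies at chr20:3076832-3076891 on the minus strand in rn4. The level was 0.42 and 0.14 in MHs, 0.14, 0.18 and 0.21 in control SHPCs, and 0.48, 0.94 and 0.36 in BM-MC SHPCs. The BM-MC samples all lay above the highest control, and MH replicate 1 lay among the BM-MC samples. The difference between SHPC groups was 0.41 (1.33-fold, 95% interval 0.0046 to 0.82, adjusted p = 0.30 from limma), and it was 0.24 without BM-MC replicate 2. The difference from MHs was 0.31 for BM-MC SHPCs (adjusted p = 0.50 from limma; 0.14 without BM-MC replicate 2) and -0.10 for control SHPCs (adjusted p = 0.80 from limma), which turned to 0.038 without MH replicate 1.

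**Figure D2:**
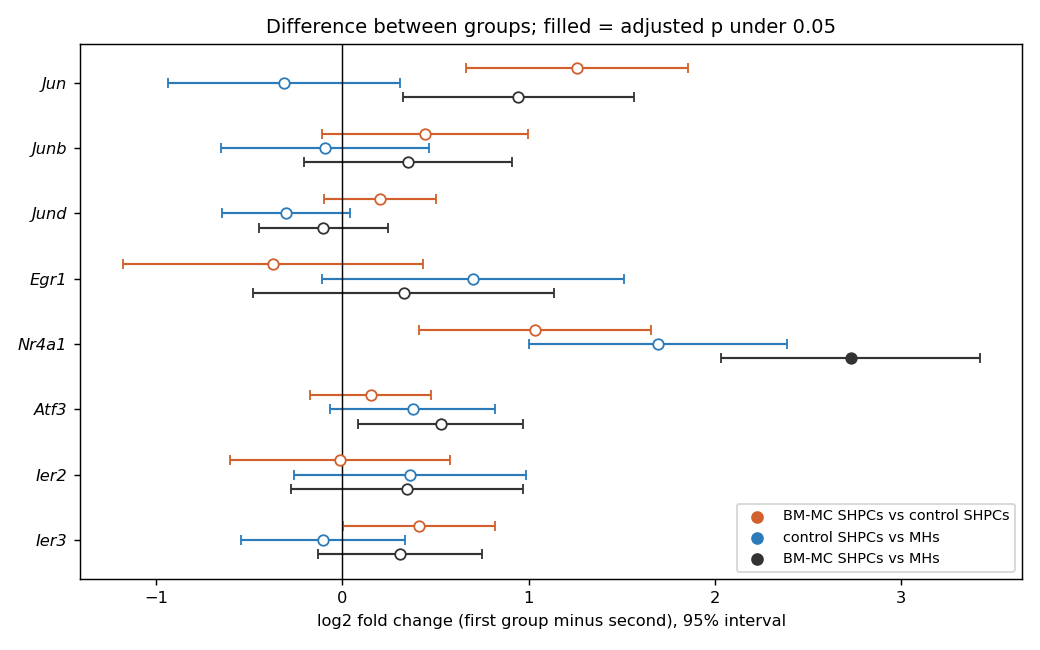
Log2 fold change of the 8 tested genes (x axis, with 95% interval) in the 3 comparisons, each as the first named group minus the second; filled points passed an adjusted p of 0.05 in limma. Nr4a1 between BM-MC SHPCs and MHs, at 2.73, is the 1 filled point, and Jun, Nr4a1 and, by a narrow margin, Ier3 have intervals above 0 between the SHPC groups.

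Counted over the 8 tested genes, none was called between BM-MC and control SHPCs in either direction by limma, where 4 of 14536 genes were called higher (0.0275%) and 0 lower. Over all 23111 probes the counts were 5 higher and 0 lower, and without control SHPC replicate 3 they were 490 and 40, where again 0 of the 8 genes were called (Jun 1.11, adjusted p = 0.10 from limma). They were 0 and 0 when replicate 1 or 2 of either SHPC group was left out, and 16 and 4 when BM-MC replicate 3 was. At an unadjusted p under 0.05, 3 were higher (Jun, Nr4a1 and Ier3), where 10.3% of all genes were, and 0 were lower (5.85%). The difference was above 0 in 6 of the 8, against 53.5% of all genes. In 5 of the 8 (Jun, Nr4a1, Ier3, Jund and Junb) all BM-MC samples lay above the highest control, which held for 13.3% of all genes, and in 0 all lay below the lowest (11.3%). For 2 of the 5 the gap was very small. The lowest BM-MC sample and the highest control were at 2.242 and 2.229 for Jund, and at -3.900 and -3.905 for Junb. The median difference was 0.31, against 0.025 over all genes, and it was 0.17 without BM-MC replicate 2 and 0.12 with scaling to the array median, where the median of all probes was -0.17. Between control SHPCs and MHs none was called by limma, where 0.998% of genes were called higher and 0.227% lower, 1 (Nr4a1) had an unadjusted p under 0.05 and was higher, where 7.72% of genes were, and 0 were lower (12.5%). The difference was above 0 in 4 of the 8, against 42.7% of genes. In 3 genes (Nr4a1, Ier2 and Egr1) every control SHPC sample was above both MHs (16.9% of all genes) and in 1 (Jund) below (25.5%). The median was 0.13, against -0.057 over all genes, and it was 0.032 without MH replicate 2 and 0.29 without MH replicate 1. Between BM-MC SHPCs and MHs 1 of 8 was called higher, where 0.378% of genes were, and 0 lower (0.0275%). There 3 genes (Jun, Atf3 and Nr4a1) did not overlap and were higher, where 14.9% of genes were, and 0 were lower (18%). At an unadjusted p under 0.05, the same 3 genes were higher (6.8%) and 0 lower (6.72%). The difference was above 0 in 7 of the 8, against 47.3% of genes. The median was 0.35, against -0.019 over all genes, and it was 0.15 with scaling to the array median, where the median of all probes was -0.19, and 0.55 without BM-MC replicate 1. The comparisons share samples, so their counts are not independent.

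The 3 BM-MC samples differed in which of these genes stood highest. Replicate 3 had the highest Egr1, Nr4a1 and Ier2 of all 8 samples but the lowest Jun of its group, replicate 2 had the highest Junb, Atf3 and Ier3, and replicates 1 and 2 had nearly the same Jun. When each gene was centred on its own mean over the samples, the closest pairs of genes over the 8 samples were Junb and Ier3 (root mean square distance 0.15), Jund and Ier3 (0.21) and Egr1 and Ier2 (0.24), and the most distant pair was Jund and Nr4a1 (1.16). Jun and Nr4a1, the 2 genes with the largest differences between SHPC groups, were 0.98 apart. These distances describe 8 samples in 3 groups and carry no test. Outside the 10 genes, the profile nearest to Jun among 14443 genes was that of Gadd45g, a growth arrest and DNA damage gene, at a distance of 0.20, followed by LOC103694964 (0.22) and LOC102548450 (0.24). Gadd45g was at 1.32 and 1.37 in MHs, at 0.85, 1.08 and 0.80 in control SHPCs, and at 2.23, 2.33 and 2.001 in BM-MC SHPCs. The profiles nearest to the mean of the 8 genes were those of Lbr (0.097), Spice1 (0.097), LOC102554092 (0.11), LOC360919 (0.12) and Simc1 (0.12).

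Other genes of the pathway were read from 4 further lists. Of 26 other immediate early genes 22 were tested, Egr3, Egr4, Nr4a3 and Arc being too dim. Between BM-MC and control SHPCs 15 of the 22 had a difference above 0 (53.5% of all genes), 9 did not overlap and were higher (13.3%), 0 did not overlap and were lower (11.3%), and the median difference was 0.27. None was called by limma. The largest differences were those of Sik1, a kinase induced by cAMP (1.06, adjusted p = 0.091 from limma), Myc, a growth-promoting transcription factor (0.93, adjusted p = 0.17 from limma), and Dusp1, a phosphatase that switches off MAP kinases (0.85, adjusted p = 0.24 from limma). The smallest were those of Ccn2 (-0.44), Gem (-0.21) and Ier5l (-0.19), with adjusted p-values from limma of 0.51 to 0.76. Between BM-MC SHPCs and MHs 1 of the 22, Sik1, was called higher (0.378% of all genes) and 0 lower (0.0275%), and the median was 0.12, against -0.019 over all genes. Between control SHPCs and MHs 0 were called (0.998% of all genes higher and 0.227% lower), and the median was -0.10, against -0.057.

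Sik1 was at 0.81 and 0.92 in MHs. It was at 1.18, 0.92 and 0.98 in control SHPCs and at 1.85, 2.17 and 2.23 in BM-MC SHPCs, so that the BM-MC samples stood apart from the other 5. It rose by 1.22 between MHs and BM-MC SHPCs (2.33-fold, SE 0.16, adjusted p = 0.0317 from limma). The call was lost without MH replicate 1 (1.17), MH replicate 2 (1.28), BM-MC replicate 2 (1.18) or BM-MC replicate 3 (1.149), and with slide block as a term (1.29). Ccn1, a secreted matrix protein that was named after its values were seen, was the nearest to a call between the SHPC groups in this list, at 0.81 (adjusted p = 0.088 from limma).

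The 13 AP-1 dimer partners outside the Jun and Fos members had 11 tested genes, with Fosl1 and Batf2 untested. None was called by limma in any comparison. Their median difference was 0.19 between the SHPC groups, -0.45 between control SHPCs and MHs and -0.10 between BM-MC SHPCs and MHs. Over all genes these medians were 0.025, -0.057 and -0.019. Between the SHPC groups the larger differences included those of Mafg (0.48, adjusted p = 0.28 from limma) and Atf7 (0.47, adjusted p = 0.19 from limma). The smallest were those of Batf3 (-0.20), Batf (-0.18) and Atf2 (-0.11). In 4 of the 11 all BM-MC samples lay above the highest control (13.3% of all genes), and in 0 below the lowest (11.3%). In 6 of the 11 every control SHPC sample was below both MHs (25.5% of all genes), and in 2 above (16.9%).

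The upstream kinases and factors, which carry signals to these genes, had 16 of 18 genes tested, and the AP-1 target genes 6 of 10. No gene of either list was called by limma in any comparison. Between the SHPC groups the kinases and factors had a median of 0.0050, close to the 0.025 of all genes, with Mapk9, which encodes a JNK kinase, at 0.36 (adjusted p = 0.35 from limma), Map2k7 at 0.31, Elk4 at 0.22, Mapk3, an ERK kinase, at -0.24, Map2k4 at -0.30 and Srf, the serum response factor, at -0.45 (adjusted p = 0.34 from limma). The target genes had a median of 0.024, and ranged from -0.46 for Plau, a protease of plasminogen, to 0.29 for Ccnd1, the G1 cyclin, with Hmox1 at 0.24, Cd44 at 0.044, Timp1 at 0.0050 and Plaur at -0.18. Against MHs, the target genes had a median of -0.48 in control SHPCs and -0.49 in BM-MC SHPCs, where all genes had -0.057 and -0.019. In 4 of the 6 every control SHPC sample was below both MHs (25.5% of all genes), and in 1 above (16.9%). Among the 16 kinases and factors this held for 7 below and 0 above. Spp1, Mmp9 and Mmp12 were among the target genes too dim to test.

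**Figure D3:**
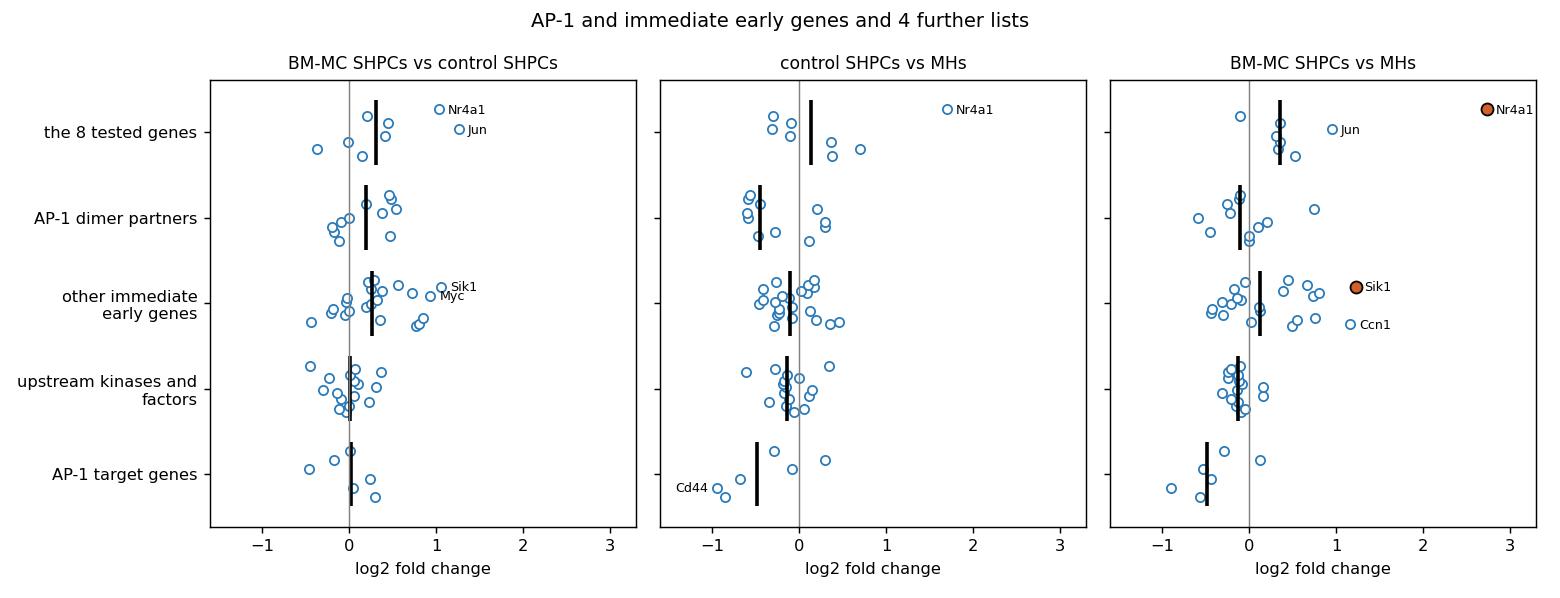
Log2 fold change (x axis) of each tested gene in the 3 comparisons, for the 8 tested members and 4 further lists; vertical bars are list medians, filled points passed an adjusted p of 0.05 in limma, and genes beyond 0.9 in size are named. Nr4a1 and Sik1 between BM-MC SHPCs and MHs are the filled points, and between the SHPC groups the medians of the further lists run from 0.0050 for the upstream kinases and factors to 0.27 for the other immediate early genes.

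Markers of proliferation and of other cell types were read in the same samples. The mean level of 4 proliferation markers (Mki67, Top2a, Cdk1 and Ccnb1) was -4.07 to -3.71 in MHs, -0.88 to -0.50 in control SHPCs and -2.07 to -1.26 in BM-MC SHPCs, and 4 of 4 were called higher than in MHs by limma in either SHPC group. These markers were lower in BM-MC SHPCs than in control SHPCs by 0.98 on average. Nr4a1 was lowest in MHs and highest in BM-MC SHPCs. Granulocyte markers, 3 of 4 tested with Mpo not above background on any array, were at -2.04 to -1.48 in control SHPCs, at -3.46 to -3.14 in BM-MC SHPCs and at -3.39 and -1.58 in the MHs. Erythroid markers (3 of 3) ranged from 0.0035 to 1.97 in control SHPCs, the highest being replicate 3, and from -0.92 to -0.48 in BM-MC SHPCs. Kupffer cell and macrophage markers (6 of 6) were at 0.48 to 1.003 in control and 0.67 to 1.16 in BM-MC SHPCs, a difference of 0.15, and sinusoidal endothelium (4 of 5, without Stab1) differed by 0.17, stellate cells and fibroblasts (6 of 6) by 0.087 and cholangiocytes (4 of 4) by -0.16. Of 5 lymphocyte markers 1 was tested, Cd3d, which differed by -0.30. Within a list the markers did not all go the same way. Cd163 was at 0.31, 0.33 and -0.12 in control and at 0.74, 1.07 and 0.35 in BM-MC SHPCs. Adgre1 was at -0.59, -0.73 and -1.19 in control and at -0.77, -0.96 and -1.33 in BM-MC SHPCs. Of the cholangiocyte markers, Sox9 was at -2.48, -2.92 and -2.22 against -2.47, -1.88 and -1.42. Epcam was at -2.65, -2.76 and -2.55 against -2.81, -3.36 and -3.09. Between BM-MC SHPCs and MHs, where Nr4a1 was called, these lists differed by 0.33 (hepatocyte), -0.34 (Kupffer cell and macrophage), -0.060 (endothelium), 0.28 (stellate cell and fibroblast), 0.67 (cholangiocyte), -0.83 (granulocyte), 0.12 (Cd3d) and -0.66 (erythroid). No marker of these lists was called in any of the 3 comparisons by limma, other than the proliferation markers against MHs. The part of these marker values in the differences of Jun and Nr4a1 was not tested.

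**Figure D4:**
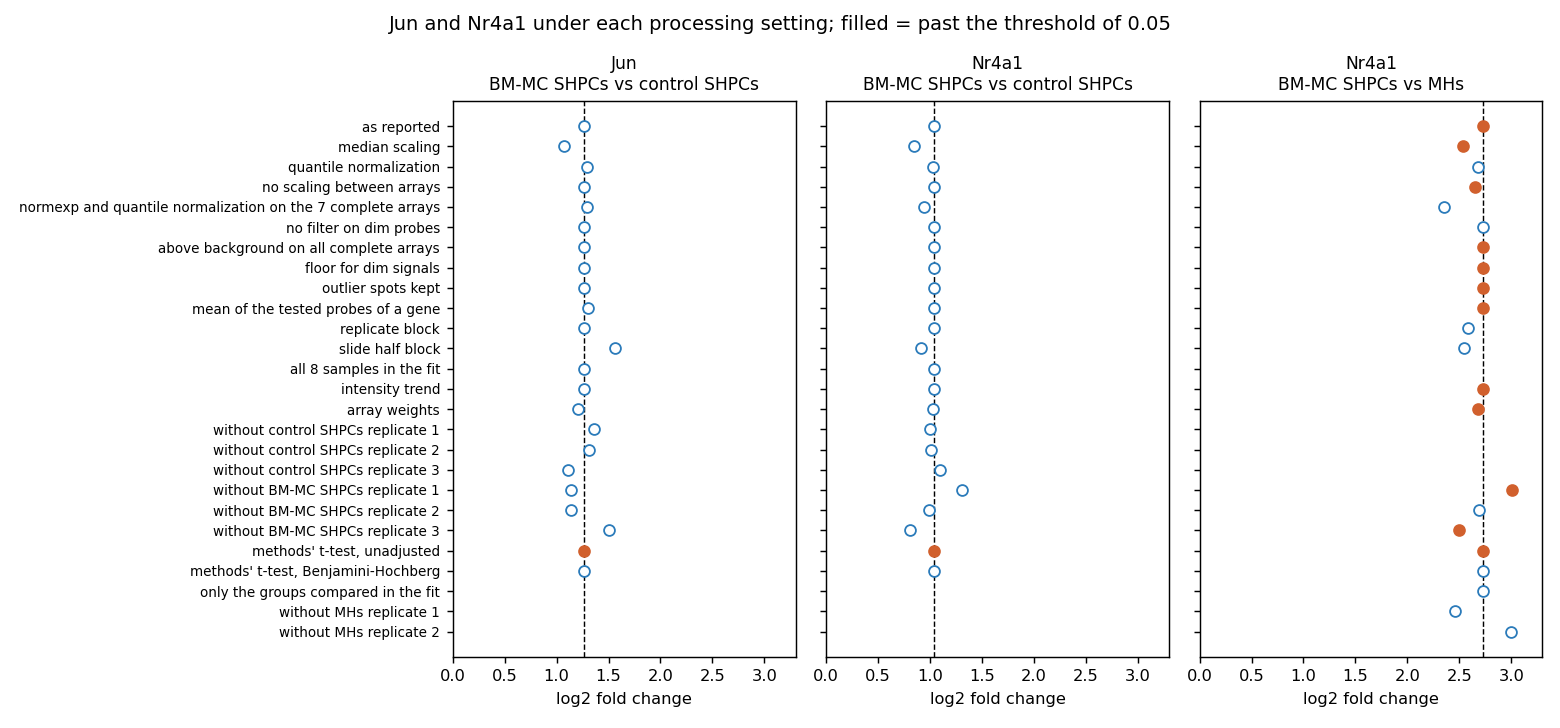
Log2 fold change (x axis) of Jun and Nr4a1 between the SHPC groups and of Nr4a1 between BM-MC SHPCs and MHs, under each processing setting or left-out sample (y axis); dashed lines mark the reported values of 1.26, 1.03 and 2.73, and filled points passed the setting's threshold of 0.05, except that 1 setting shows the unadjusted p of the methods' own test. The differences stayed above 0.8 in every setting shown, while the side of the threshold moved with the setting for Nr4a1 against MHs.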

How the data were processed

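Per the labels, total RNA of LMD-captured cells was labelled with Cy3 and hybridised to 1-colour Agilent rat arrays, read by Agilent Feature Extraction 10.7. The deposited scanner files hold Agilent's processed signal, a background-subtracted intensity not scaled between arrays, and the authors' value table holds the same intensities. Deposited marks of spots above background served as a filter, and columns of mean and background signals served for an alternative that combined normexp with quantile normalization on the 7 complete arrays. Probe positions follow the rn4 build of the file header.

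Here each intensity was set as log2 relative to its array's 75th percentile, outlier spots were left out and spots of a probe were averaged. The deposited values were not log2 values. Of 45598 probes, 23111 passed the filter (3 or more of the 7 fully marked arrays well above background). The test was limma 3.58.1 (R 4.3.3), and p-values were adjusted by Benjamini-Hochberg over these probes. The filter could not use the marks of control SHPC replicate 2. SHPC groups were compared over 6 samples, and comparisons with MHs were fitted on all 8, sharing 1 estimate of the spread. The study's methods name a t-test, which was run as an alternative. Symbols were updated through accessions or synonyms of the RefSeq table. The genes described and the further lists were chosen with earlier results of these data known. From each further list the text names the 3 largest and 3 smallest differences between SHPC groups and any called gene, and it names the 5 genes nearest to the mean profile and the 3 nearest to Jun, of which 1 is described. Some items that this rule covers are not reported here. Scripts were tested on simulated data. The number of arrays limits the precision.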

Additional observations from a re-analysis of the deposited data

How the results depend on the processing

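Of the recomputed differences of single genes, 487 kept their direction and their side of the threshold, 11 turned direction, 24 lost a threshold and 11 gained one. Over all probes, the calls between SHPC groups rose from 5 higher and 0 lower to 206 and 7 with no scaling and 301 and 58 with array weights, and were 0 in both directions with no filter or the replicate block. Scaling each array by its median moved the median of all probes between the SHPC groups from 0.018 to -0.17, and Atf3 turned to -0.041 there. Ier2 between SHPC groups, at -0.013, turned to 0.052 with quantile normalization, to 0.045 with normexp and quantile normalization combined on the 7 complete arrays (which leaves out control SHPC replicate 2, so that these 3 changes cannot be told apart), and ranged from -0.29 to 0.16 over left-out samples. Without MH replicate 1, Ier3 between control SHPCs and MHs turned to 0.038 (range over left-out samples -0.24 to 0.038) and Jund between BM-MC SHPCs and MHs to 0.045 (-0.25 to 0.045), and Jund turned to 0.080 with the mean of its probes. Without BM-MC replicate 3, Egr1 between BM-MC SHPCs and MHs turned to -0.057 (-0.057 to 0.58). The unadjusted methods' t-test called 2 of the 8 genes (Jun and Nr4a1) between SHPC groups and 2 (Egr1 and Nr4a1) between control SHPCs and MHs. Of all 23111 probes it called 1876 higher and 1577 lower between SHPC groups, and 1866 higher and 2168 lower between control SHPCs and MHs.

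Nr4a1 between control SHPCs and MHs (1 gene called) passed with median scaling, no scaling, only probes above background on all complete arrays, a floor for dim signals, only the groups compared, an intensity trend or array weights. Its adjusted p from limma ran from 0.0138 to 0.29 over 20 alternatives and 7 passed. The median difference of that comparison was 0.047 with no scaling, 0.040 with the normexp combination and 0.32 over 10 genes with no filter, and ranged from 0.032 to 0.29 over left-out samples, the ends being MH replicates 2 and 1. Between BM-MC SHPCs and MHs the count of called genes was 0 with quantile normalization, the normexp combination, no filter, slide block as a term, only the groups compared or the t-test after adjustment, and ranged from 0 to 1 over left-out samples (0 without MH replicate 1, MH replicate 2 or BM-MC replicate 2). Nr4a1 passed there in 10 of 20 alternatives (adjusted p from limma or the t-test 0.0070 to 0.48).

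Of the further lists, 2 genes (Ccn1 and Sik1) were called between SHPC groups with an intensity trend or array weights and 7 with the unadjusted t-test, with a range of 0 to 1 over left-out samples (1, Ccn1, without control SHPC replicate 3). Of all 23111 probes, 29 were called higher and 4 lower with the trend, and 301 and 58 with array weights. With the unadjusted t-test these were 1876 and 1577. Between control SHPCs and MHs 1 (Ccnd1) was called with an intensity trend and 9 with the unadjusted t-test. Of all 23111 probes, 355 were called higher and 204 lower there with the trend, and 1866 and 2168 with the unadjusted t-test. Between BM-MC SHPCs and MHs the count was 0 with median scaling, quantile normalization, no scaling, no filter, the mean of probes, slide block as a term, only the groups compared, array weights or the adjusted t-test, 5 with the unadjusted t-test, and 0 to 1 over left-out samples. Sik1 passed in 6 of 20 alternatives. Between BM-MC SHPCs and MHs the unadjusted t-test called 1013 of all 23111 probes higher and 1124 lower. Alternatives for the further lists were chosen after seeing the data. The cause of these changes was not tested.

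With the replicate number as a block, the called genes between BM-MC SHPCs and MHs were 0 among the 8 and 0 in the further lists, and no other call of these genes changed. Same-numbered control and BM-MC samples correlated at 0.13, 0.078 and 0.17 in their deviations from group means. Different-numbered samples of these groups correlated at -0.15 to 0.082. Not every same-numbered pair was above 0.1, so the numbers were not taken as a pairing, though these values cannot settle whether they mark one. With the block, the SE of Jun between SHPC groups was 0.12 in place of 0.25, and its adjusted p from limma was 0.20.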
